A study of Homo sapiens with 6 samples.

Results

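The ZNF genes are those whose symbol in the platform annotation is ZNF followed by digits only. The array measured 212 of them among 11963 genes tested, on 278 probe sets, and each gene was read from its brightest probe set. They were followed in MDA-MB-231, an established triple-negative breast cancer line, cultured in RPMI medium with serum and antibiotics. The baseline group held 3 samples taken at 0 h, named E, 4 and 5, with no agent named. The dinaciclib group held 3 samples, named F, 4 and 5, taken 12 h after dinaciclib, an inhibitor of several cyclin-dependent kinases, was added to the medium in DMSO. The labels give no dose, do not say whether baseline cells received DMSO, and describe no culture kept for 12 h without the drug, so drug, solvent and time in culture cannot be told apart. Whether the replicates are separate cultures is not said by any label, so p-values cover only the spread among these 6 samples, and that spread may be technical. Precision is limited by having 3 arrays per group.

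Most ZNF genes encode C2H2 zinc finger proteins, in which a chain of small zinc-holding fingers reads DNA or RNA. A large part of the family also carries a KRAB domain, which recruits the scaffold TRIM28 and, through it, the histone methyltransferase SETDB1, heterochromatin protein 1 and deacetylases, and so silences transposable elements and other targets. Many of these genes arose by tandem duplication and lie side by side in clusters. Messenger RNAs of this family are known to be short-lived as a class.

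Some facts of the arrays bear on every value. The median intensity was 53.3, 66.2 and 60.8 in baseline E, 4 and 5 and 43.3, 46.8 and 40.6 in dinaciclib F, 4 and 5, so the groups differed as a whole. The letter-named samples stood apart: the 5-prime 18S ribosomal RNA control read 736 in baseline E and 1155 in dinaciclib F, against 8273 to 9061 in the 4 numbered samples. VIM (8944), CD44 (5114) and KRT18 (4170.2), which this line is known to express, were bright at baseline. SPARC (13.0), also taken as a marker of the line, was dim. Of luminal and receptor genes taken as low in this line, the progesterone receptor PGR (2.91) and CDH1 (8.12) were near the floor. ESR1 read 26.8, while ERBB2 (167.5), EPCAM (208.7) and GATA3 (349.5) were not dim. Among markers of blood, vessel and fibroblast cells, mean baseline intensities ranged from 3.05 for CDH5 to 43.7 for COL1A1. Of these 8 markers, CD14 (24.7 to 2.07) and PECAM1 (33.1 to 10.9) fell and 6 did not pass. Their summed intensity was 154 to 188 at baseline and 106 to 135 after dinaciclib, with 0 markers at 0, and their part in the results was not tested.

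ZNF transcripts moved in both directions, with more falls than rises as deposited and a raised share above that of all genes. Of the 212 genes, 25 rose, 47 fell and 140 did not pass the test (limma, Benjamini-Hochberg adjusted p under 0.05 over all rows). The raised share was 11.8%, against a background of 3.54% of all genes, and the lowered share was 22.2%, against 16.4%. At least 2-fold changes past the test were seen in 18 raised and 40 lowered ZNF genes, 8.49% and 18.9%, against 2.57% and 13.3% of all genes. The raised ZNF genes had log2 changes from 0.71 to 1.93 and the lowered ones from -0.76 to -3.00. The median over the 212 was -0.31, beside -0.26 over all genes, but the median size of change regardless of sign was 0.65, beside 0.49. Baseline and treated samples were fully separated in 45 ZNF genes that were higher and 78 that were lower after dinaciclib, 21.2% and 36.8% of them, where all genes gave 9.36% and 30.7%. Members were chosen with earlier results known, so these shares describe the family and carry no p of their own.

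**Figure D1:**
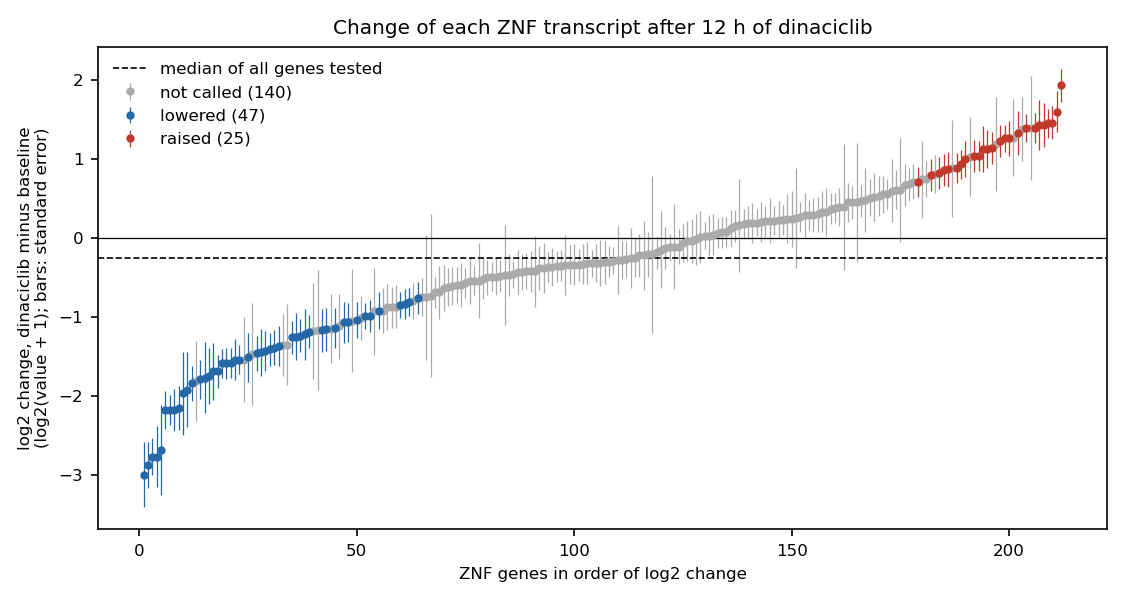
Log2 change with its standard error for each of the 212 ZNF genes, in order of change, dinaciclib minus baseline on the log2(value + 1) scale. The 47 lowered genes (blue) reach -3.00 and the 25 raised genes (red) reach 1.93, and the dashed line marks the median of all genes tested, -0.26.

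How the arrays are scaled turned the balance of rises and falls, while the raised share stayed above the background. With values as deposited, 65.3% of the called ZNF genes were falls, beside 82.3% of all called genes. Quantile normalization, which moved the median of all genes to -0.02, gave 52 raised and 30 lowered ZNF genes, so that falls made up 36.6% of calls. The raised share was then 24.5% against 8.89% of all genes and the lowered share 14.2% against 13.4%. Centring each array on its median moved the median of all genes to 0.19 and gave 56 raised and 29 lowered ZNF genes (34.1% falls), or 26.4% against 16.3% and 13.7% against 10.9%. Centring on spiked control probe sets moved it to -0.34 and gave 14 raised and 37 lowered (72.5% falls), or 6.60% against 2.02% and 17.5% against 13.3%. In each of these 4 scalings the raised share of ZNF genes was above the background, while the lowered share after quantile normalization lay close to it. Of the genes called as deposited, 14 of 25 raised and 27 of 47 lowered were called the same way in all 4 scalings, and 0 changed sign.

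**Figure D2:**
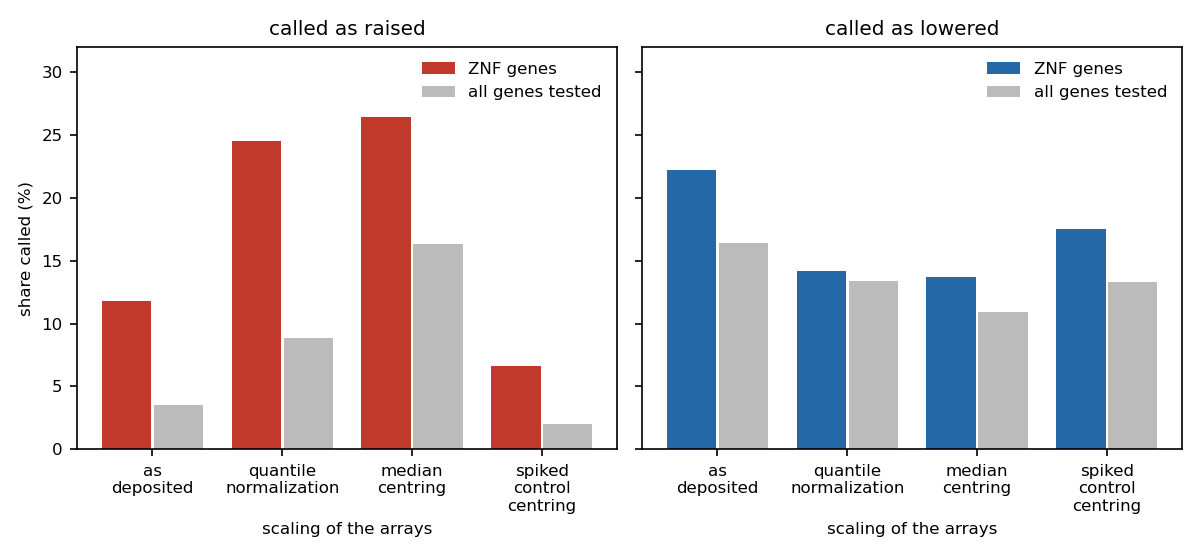
Share of the 212 ZNF genes (colour) and of the 11963 genes tested (grey) called as raised (left) and as lowered (right) under 4 scalings of the arrays. The raised share of ZNF genes stands above the grey bar in each scaling, from 6.60% against 2.02% to 26.4% against 16.3%, and the lowered shares lie closer together.

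The calls also depended on the number of samples and on which sample was left out. Without baseline E, 4 or 5, 15, 14 and 12 ZNF genes rose, beside 2.64%, 2.13% and 1.61% of all genes, and without dinaciclib F, 4 or 5, 17, 10 and 12 rose, beside 2.54%, 1.55% and 1.91%. In the same order 40, 22 and 23 fell without a baseline sample, beside 15.4%, 7.51% and 7.73% of all genes, and 42, 30 and 32 without a dinaciclib sample, beside 12.6%, 10.6% and 9.76%. As shares of the 212 genes the rises ran from 4.72% to 8.02% and the falls from 10.4% to 19.8%, each above its background. The 4 numbered samples alone called 9 raised and 25 lowered ZNF genes, 4.25% and 11.8%, against 1.92% and 9.86% of all genes. From baseline E to dinaciclib F, samples that had no part in those calls, 9 of the 9 raised genes were higher and 24 of the 25 lowered ones were lower. Among all genes called in the numbered samples the like shares were 87.8% and 96.9%. Called or not, 44.3% of ZNF genes were higher and 55.7% lower from E to F, beside 42.0% and 58.0% of all genes. With all 6 samples, 9 of 25 raised and 20 of 47 lowered genes passed in each of the 6 fits that left out 1 sample.

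The largest falls among genes whose groups did not overlap began with ZNF764, which read 82.3, 102 and 91.5 at baseline (E, 4, 5) and 12.7, 17.3 and 5.24 after dinaciclib (F, 4, 5). Each treated sample lay below each baseline sample, and dinaciclib 5 was the lowest. The log2 level fell from 6.53 ± 0.15 to 3.54 ± 0.80 (SD, n = 3 each), which is a log2 change of -3.00 (standard error 0.41, adjusted p = 0.00659 by limma with Benjamini-Hochberg), and its other probe set fell too (-1.98). ZNF764 did not pass in the numbered samples alone (-3.19, adjusted p = 0.0569). Its mean intensity after dinaciclib was low (11.7), and its first place depended on the constant added. With log2(value + 16) its log2 change was -1.98, a smaller fall than that of ZNF76 (-2.25).

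ZNF76, a close relative of the transcriptional activator ZNF143, read 164, 144 and 182 at baseline and 21.1, 30.6 and 14.9 after dinaciclib. The groups were far apart, and the log2 change was -2.88 (standard error 0.29, adjusted p = 0.00384 by limma with Benjamini-Hochberg). ZNF143 itself, which drives small nuclear RNA genes and many promoters, read 446, 504 and 435 against 536, 518 and 410. Its groups overlapped, with a log2 change of 0.07 (standard error 0.20, adjusted p = 0.852 by limma with Benjamini-Hochberg). ZNF143 passed narrowly as raised under median centring (0.52). A test of the difference between these genes was not run.

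ZNF638, a nuclear matrix protein known to direct the HUSH silencing complex to unintegrated viral DNA, was the brightest of the 12 largest falls. It read 604, 562 and 639 at baseline and 128, 151 and 118 after dinaciclib. The samples of each group lay close together, and the log2 change was -2.18 (standard error 0.19, adjusted p = 0.00325 by limma with Benjamini-Hochberg). Both of its probe sets fell, at -2.18 and -2.07, and both are of the kind whose probes also match other sequences.

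ZNF415 went from 81.0, 127 and 118 to 15.1, 13.7 and 15.7, with treated samples almost equal, a log2 change of -2.77 (standard error 0.23, adjusted p = 0.00325 by limma with Benjamini-Hochberg). ZNF318, a nuclear protein that controls IgD splicing in B cells, went from 200, 324 and 275 to 57.6, 63.6 and 50.0 and fell on both of its probe sets (-2.18 and -1.64). ZNF609, which works with the Integrator complex, went from 98.1, 115 and 194 to 7.57, 29.2 and 31.8. Its spread was wide (log2 change -2.68, standard error 0.57), and it did not pass after quantile normalization (adjusted p = 0.0542) or without any 1 of the baseline samples (adjusted p = 0.0502, 0.0712 and 0.0736 without E, 4 and 5).

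ZNF629, ZNF329, ZNF232, ZNF446, ZNF862 and ZNF839 completed the 12, with log2 changes of -2.77, -2.18, -2.15, -1.97, -1.92 and -1.84. ZNF446 and ZNF862 were the dimmest of these, with treated intensities from 4.75 to 21.5 and of at most 8.48, and both lost their call in many other fits, with quantile normalization (adjusted p = 0.076 and 0.0708) among them. ZNF451, an enzyme of SUMO conjugation, fell outside the 12 and is named after its values were seen. Its probe sets fell alike, by 1.59 and 1.61 on the log2 scale.

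The largest rise was that of ZNF112, which read 70.4, 96.6 and 77.4 at baseline and 277, 305 and 351 after dinaciclib. Each treated sample lay far above each baseline sample. Its log2 level rose from 6.35 ± 0.23 to 8.28 ± 0.17 (SD, n = 3 per group), a change of 1.93 (standard error 0.21), or 3.80-fold on the log2(value + 1) scale (adjusted p = 0.00437 by limma with Benjamini-Hochberg).

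ZNF26, a KRAB zinc finger protein, rose from 135, 194 and 219 to 454, 609 and 585, with the letter-named sample the lowest in each group. Its log2 change was 1.60 (standard error 0.26, adjusted p = 0.0102 by limma with Benjamini-Hochberg). ZNF227 rose from 75.4, 80.9 and 61.4 to 234, 181 and 190 (log2 change 1.46, standard error 0.21), and ZNF134 from 62.8, 67.2 and 68.1 to 182, 198 and 167 (1.45, 0.18). In both, the lowest treated value was more than 2 times the highest baseline value.

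ZNF330, a nucleolar protein, was the brightest raised member. It read 910, 1067 and 1038 at baseline and 2474, 2804 and 2621 after dinaciclib, a log2 change of 1.39 (standard error 0.18, adjusted p = 0.00566 by limma with Benjamini-Hochberg). Its dimmer probe set did not pass (0.71, standard error 0.24, adjusted p = 0.098 over every probe set). ZNF350, a KRAB repressor known to bind BRCA1, went from 69.7, 80.4 and 66.5 to 185, 217 and 172, also a change of 1.39 (standard error 0.19).

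ZNF12, ZNF668, ZNF124 and ZNF551 completed the 10 largest rises, with log2 changes of 1.43, 1.43, 1.33 and 1.26. Leaving out 1 sample ended the call of ZNF12 in 3 of the 6 fits (adjusted p = 0.0571, 0.0583 and 0.0603 without baseline 5, dinaciclib 4 and dinaciclib 5). ZNF668 and ZNF124 also lost theirs, in fits without 1 sample, with adjusted p of up to 0.0873 and 0.0803. ZNF112, ZNF26, ZNF227, ZNF134, ZNF330, ZNF350 and ZNF551 passed whichever 1 sample was left out.

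**Figure D3:**
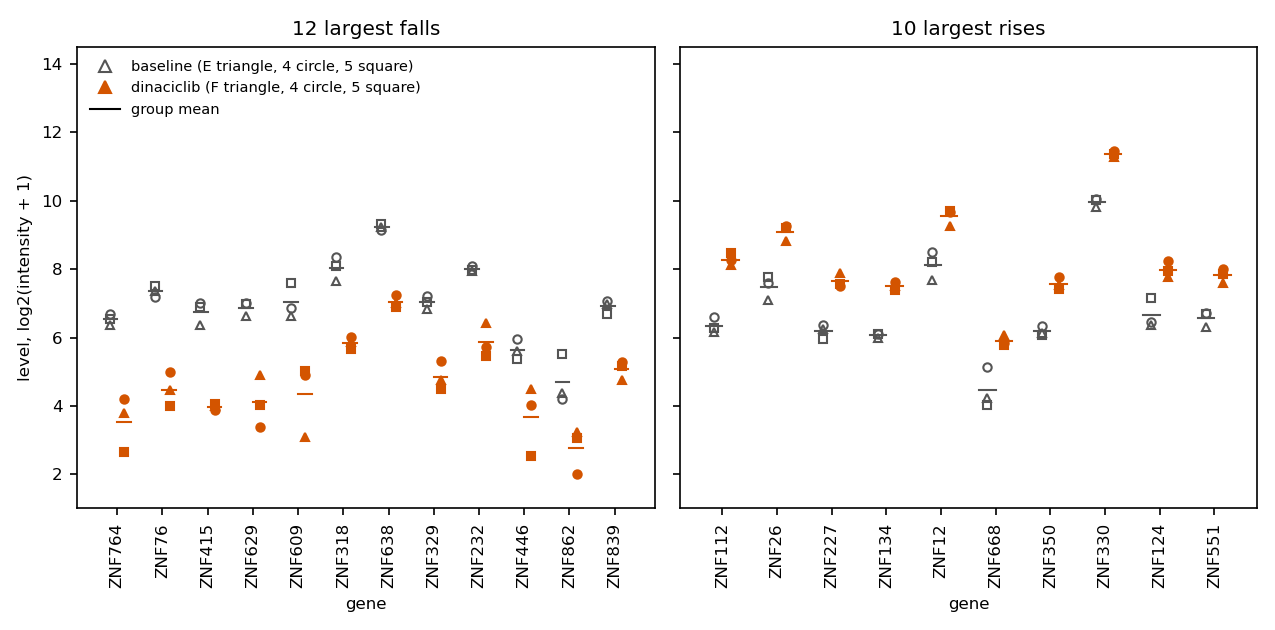
Level in each of the 6 samples, as log2(intensity + 1), of the ZNF genes with the 12 largest falls (left) and the 10 largest rises (right), with baseline in grey, dinaciclib in orange and group means as bars. In each of these genes the 3 treated samples lie wholly below or wholly above the 3 baseline samples, and ZNF862 and ZNF764 have the lowest mean levels after dinaciclib.

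Several well-known members did not pass. ZNF217, an oncogene amplified in breast cancer, read 898, 1474 and 1119 at baseline and 1447, 1821 and 1437 after dinaciclib (log2 change 0.45, standard error 0.25). ZNF207, a spindle protein that loads BUB3 onto kinetochores, read 1316, 2165 and 2139 against 1815, 2109 and 1730 (0.04, 0.26). ZNF331 had a log2 change of 0.03 (standard error 0.17). In these 3 genes the groups overlapped. ZNF217 passed as raised under median centring (0.90), as did ZNF331 (0.48).

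The restriction factors ZNF91 and ZNF93, which act on transposable elements, also did not pass as deposited. ZNF91, which silences SVA elements, read 219, 166 and 199 against 211, 187 and 215, and ZNF93, which silences LINE-1 elements, 145, 194 and 173 against 198, 210.4 and 191. Their log2 changes were 0.08 and 0.23, each with a standard error of 0.19, and the groups overlapped. After quantile normalization and median centring ZNF93 passed as raised (0.70 and 0.68). ZNF274, which brings SETDB1 to the ends of other zinc finger genes, was lower in each treated sample (702, 869 and 791 against 569, 581 and 525) and did not pass (-0.49, adjusted p = 0.12 by limma with Benjamini-Hochberg adjustment), except with log2(value + 16) (adjusted p = 0.0439).

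The related factors ZNF148 and ZNF281 had opposite signs. ZNF148 read 315, 391 and 462 against 580.4, 705 and 606 (0.71, standard error 0.22), and ZNF281, a repressor, 415, 634 and 631 against 354, 402 and 322 (-0.62, standard error 0.24). The groups overlapped in neither gene, but the adjusted p were 0.0721 and 0.135 (limma, Benjamini-Hochberg), and the difference between them was not tested. ZNF148 passed as raised in 6 other fits, after quantile normalization (adjusted p = 0.0086), median centring (0.0069) and log2(value + 16) (0.0214), without dim genes (0.0153), with a variance trend and robust estimation (0.016) and with the letter batch as a covariate (0.0401). ZNF281 passed as lowered without dim genes (adjusted p = 0.0382), with the variance trend (0.0436) and without baseline E (0.0479). ZNF10, whose KRAB domain is used as a repressor in gene silencing tools, had a log2 change of 0.67 and did not pass as deposited (adjusted p = 0.137), but did after quantile normalization (1.02), after median centring (1.12) and without dim genes (0.67). ZNF395 (-0.60) and ZNF224 (-0.42), a KRAB repressor, did not pass, and 1 of the other 2 probe sets of ZNF224 fell (-1.14, adjusted p = 0.0337). ZNF395 passed as lowered in 4 other fits, after quantile normalization (adjusted p = 0.048), with log2(value + 16) (0.0481), without dim genes (0.0362) and with the variance trend (0.0365). ZNF268, a KRAB protein, fell (-1.39, standard error 0.22), as did the repressor ZNF652 (-1.22, standard error 0.32). ZNF652 passed narrowly (adjusted p = 0.0466) and lost its call in the 3 other scalings (adjusted p = 0.128, 0.124 and 0.069), in the numbered samples alone (0.0507) and with each sample left out but dinaciclib F (up to 0.127). Adjusted over every probe set it did not pass either (0.0507). ZNF423 and ZNF750, factors of fat cell and epidermal differentiation, read at most 11.2 in each sample and did not pass. ZNF382 and ZNF703 were not analysed here.

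The share of calls varied with brightness. Genes were put into dim, middle and bright classes of equal size by their mean over all 6 samples. Of 41 dim ZNF genes, 0 rose and 4 fell (background 0.827% and 4.51% of all dim genes, limma), and 2 and 8 had groups that did not overlap in the same directions, 4.88% and 19.5% beside 3.36% and 11.8% of all dim genes. Of 135 in the middle class, 16 rose and 37 fell, 11.9% and 27.4%, beside 4.04% and 28.9% of all genes of that class. Of 36 bright ones, 9 rose and 6 fell, 25.0% and 16.7%, beside 5.74% and 15.9%. In the middle class 22.2% were higher and 43.0% lower without overlap, beside 8.05% and 48.4% of all middle genes. In the bright class these shares were 36.1% and 33.3%, beside 16.7% and 31.9% of all bright genes. In the middle and bright classes the raised share lay above that of genes of like brightness, and the lowered share lay near it. The median size of change regardless of sign was 0.61 in dim, 0.67 in middle and 0.65 in bright ZNF genes. All genes of these classes gave 0.50, 0.64 and 0.38, so the sizes were near each other in the middle class. In 30 ZNF genes mean intensities were under 16 in both groups, of which 3 were called, 10.0% beside 2.84% of 3095 such genes in all.

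The probe sets themselves set a limit on reading single members. For 29 of the 212 genes, 13.7% against 6.91% of all genes, the brightest probe set ended in x_at, the manufacturer's mark for probes that also match other sequences. Of the 72 called genes, 8 were of this kind, 3 raised and 5 lowered. Without such probe sets 12.0% of 183 ZNF genes rose and 23.0% fell, beside 3.65% and 16.8% of all genes. Of 19 called members with more than 1 probe set, 17 had each probe set on the same side of 0, and in 11 another probe set was called the same way. The exceptions were ZNF440 and ZNF589, whose other probe sets held mean intensities of 0.671 to 19.5. In 0 members were probe sets called in opposite directions. Of 34 uncalled members with more than 1 probe set, 5 had another probe set that was called: ZNF174, ZNF224, ZNF407, ZNF500 and ZNF79. In ZNF407, dim on both, the brightest gave -0.93 and the other 2.07 (adjusted p = 0.0446, limma over every probe set). The probe sets of ZNF473, neither called, gave 0.81 and -0.81.

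The share of rises was higher among ZNF genes that lie side by side. In the gene order of RefSeq (GRCh38.p14), 111 of the 212 genes lay in runs of at least 3 neighbouring protein-coding genes with ZNF, ZFP, ZSCAN or ZKSCAN symbols. In these runs 20 genes rose and 20 fell, 18.0% each. Of the 101 genes outside such runs 5 rose and 27 fell, 4.95% and 26.7%. The raised background over all genes was 3.54% and the lowered one 16.4%. Levels differed little between these sets at baseline. The median log2 level of genes in runs was 6.32, 6.45 and 6.33 in baseline E, 4 and 5 and 6.25, 6.36 and 6.02 in dinaciclib F, 4 and 5. For genes outside runs it was 6.40, 6.59 and 6.43 at baseline and 5.67, 5.71 and 5.42 after dinaciclib. There each treated sample lay below each baseline sample. The median of the log2 changes of single genes was -0.38 outside runs, smaller than this drop in level, and -0.21 in runs. Over all genes it was -0.26. With median centring these medians were 0.08 outside runs, 0.24 in runs and 0.19 over all genes, so the drop depends on scaling. In bulk RNA, fewer cells expressing a gene and less RNA per cell cannot be told apart.

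**Figure D4:**
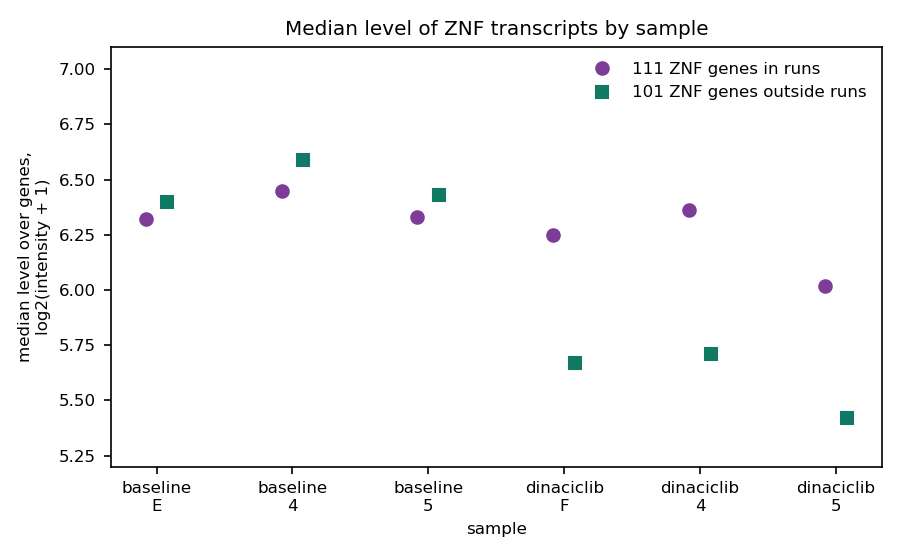
Median level over ZNF genes in each of the 6 samples, as log2(intensity + 1), for the 111 genes in runs of neighbouring zinc finger genes (circles) and the 101 outside such runs (squares). The squares drop from 6.40 to 6.59 at baseline to 5.42 to 5.71 after dinaciclib, and the circles move from 6.32 to 6.45 to 6.02 to 6.36. The median of the log2 changes of single genes was -0.38 outside runs and -0.21 in runs. The values are as deposited, and the vertical axis does not start at 0.

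The split by runs kept its direction under each scaling. After quantile normalization 30.6% of genes in runs rose and 9.91% fell, against 17.8% and 18.8% outside and 8.89% and 13.4% of all genes. Median centring gave 34.2% and 9.91% against 17.8% and 17.8%, beside 16.3% and 10.9% of all genes. Centring on spiked controls gave 10.8% and 11.7% against 1.98% and 23.8%, beside 2.02% and 13.3% of all genes. The numbered samples alone called 8 raised and 9 lowered genes in runs, 7.21% and 8.11%. Outside runs they called 1 raised and 16 lowered, 0.99% and 15.8%, beside 1.92% and 9.86% of all genes. Without x_at probe sets, 18.9% of 90 genes in runs and 5.38% of 93 outside rose, beside 3.65% of all genes. Outside runs the raised share was thus near the background with median centring and spiked controls, and above it after quantile normalization. Genes of a run resemble each other in sequence, so their probes are not fully independent, and the difference between the sets was not tested.

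Of the 9 runs with at least 4 measured ZNF genes, 5 held both rises and falls. The run from ZNF605 to ZNF268 held the rises of ZNF26 (1.60), ZNF84 (0.80) and ZNF140 (0.87), side by side, and the fall of ZNF268 (-1.39). The longest measured stretch, from ZNF283 to ZNF180, had 14 members, of which ZNF230 (1.13), ZNF227 (1.46), ZNF112 (1.93) and ZNF180 (0.71) rose, ZNF45 (-0.81) fell and 9 did not pass. From ZNF530 to ZNF256, ZNF134 (1.45), ZNF211 (0.88) and ZNF551 (1.26) rose and ZNF587 (-0.76), read from an x_at probe set, fell. In the run from ZNF737 to ZNF681, ZNF430 (1.04) and ZNF675 (1.14) rose, while ZNF85 (-1.41), the gene beside ZNF430, and ZNF43 (-1.17) fell. Each called gene of this run was read from an x_at probe set, whose probes also match other sequences. From ZNF606 to ZNF8 each of 6 members had a negative log2 change, from -0.22 to -2.18, and ZNF329 and ZNF544 fell. Of 43 pairs of adjacent measured members, both were called in 5, of which 4 moved the same way and 1, ZNF85 with ZNF430, in opposite directions.

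**Figure D5:**
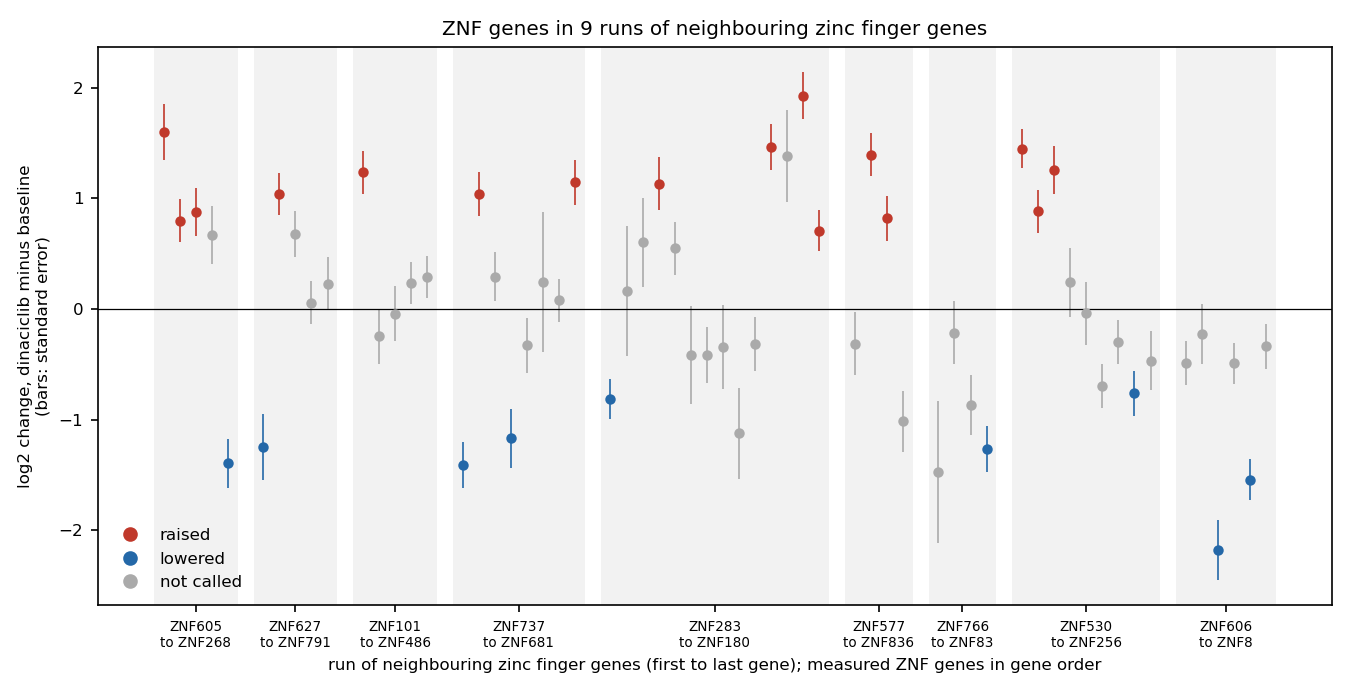
Log2 change with its standard error, dinaciclib minus baseline, for the ZNF genes in 9 runs of neighbouring zinc finger genes with at least 4 measured members, in gene order within each grey band. Rises (red) and falls (blue) occur in the same run in 5 of the 9, and the run from ZNF606 to ZNF8 has 6 members below 0. The called genes from ZNF737 to ZNF681, and the fall of ZNF587, were read from x_at probe sets.

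The promoters give another view that the choice of members did not use. RefSeq promoter windows (GRCh38.p14) of 250 bases before and 50 after a gene's start were read for the 139 ZNF genes with a single window. Windows are shown for the 2 largest rises and the 2 largest falls with a single window, among those that could be shown, cut to the 250 bases before the start. Capitals mark CCAAT and ACTACA on either strand, which share no letters here.

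ZNF26 (raised, log2 change 1.60, chr12:132986117-132986366, plus strand): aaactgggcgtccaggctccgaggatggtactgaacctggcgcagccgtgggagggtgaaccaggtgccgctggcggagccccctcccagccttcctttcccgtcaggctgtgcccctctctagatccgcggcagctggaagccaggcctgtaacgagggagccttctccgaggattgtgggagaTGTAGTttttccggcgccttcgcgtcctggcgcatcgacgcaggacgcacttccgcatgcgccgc
ZNF227 (raised, log2 change 1.46, chr19:44212282-44212531, plus strand): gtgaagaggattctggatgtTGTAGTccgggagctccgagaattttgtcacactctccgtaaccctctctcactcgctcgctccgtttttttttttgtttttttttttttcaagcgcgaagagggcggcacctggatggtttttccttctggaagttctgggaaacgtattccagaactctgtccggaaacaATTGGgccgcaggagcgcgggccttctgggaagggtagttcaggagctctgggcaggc
ZNF764 (lowered, log2 change -3.00, chr16:30558375-30558624, minus strand): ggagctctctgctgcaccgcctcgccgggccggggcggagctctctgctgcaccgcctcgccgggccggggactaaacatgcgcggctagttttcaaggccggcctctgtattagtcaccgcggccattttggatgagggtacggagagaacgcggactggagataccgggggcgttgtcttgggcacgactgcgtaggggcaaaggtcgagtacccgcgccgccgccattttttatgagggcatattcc
ZNF415 (lowered, log2 change -2.77, chr19:53132911-53133160, minus strand): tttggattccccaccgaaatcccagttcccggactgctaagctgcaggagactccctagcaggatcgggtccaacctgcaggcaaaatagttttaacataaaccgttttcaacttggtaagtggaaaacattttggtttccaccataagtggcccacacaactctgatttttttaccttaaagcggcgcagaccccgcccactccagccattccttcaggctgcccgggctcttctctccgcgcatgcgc

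ZNF26 holds 1 match to ACTACA, ZNF227 holds 1 to each motif, and ZNF764 and ZNF415 hold 0. CCAAT, the letters of a common promoter box, was found on either strand in 51.1% of the 139 ZNF windows, against 38.4% of 6809 windows of genes tested and 36.2% of all 22114 windows. By call it was in 14 of 19 raised (73.7%), 15 of 31 lowered (48.4%) and 42 of 89 uncalled ZNF genes (47.2%). When each window of a gene was allowed, the shares were 69.6%, 43.9% and 49.6%, beside 44.2% of genes tested. GGGCGG was in 9 of 19 raised (47.4%), 17 of 31 lowered (54.8%) and 61 of 89 uncalled ZNF genes (68.5%). Its share was 62.6% of all ZNF windows, beside 64.5% of genes tested. TATAAA was in 3.60% of ZNF windows, beside 8.91% of genes tested, and by call in 2 of 19 raised (10.5%), 1 of 31 lowered (3.23%) and 2 of 89 uncalled ones (2.25%).

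ACTACA was counted after the printed windows had been read. It was in 27.3% of ZNF windows, against 8.47% of genes tested, and in 31.6% of raised, 32.3% of lowered and 24.7% of uncalled ones. It was in 34.6% of windows of ZNF genes in runs and 18.0% of those outside. CCAAT was in 59.0% and 41.0% of the same windows. Within runs CCAAT was in 11 of 15 raised, 9 of 15 lowered and 26 of 48 uncalled genes. These are matches of letters, with no measurement of a bound factor.

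Other zinc finger families, grouped by symbol, moved in their own proportions. Of 14 ZSCAN and ZKSCAN genes, which carry a SCAN dimerization domain, 7 fell and 0 rose, with a median log2 change of -1.16 (limma, Benjamini-Hochberg adjusted p under 0.05). The background over all genes, for these families too, was 3.54% raised and 16.4% lowered. ZSCAN16 fell most (-2.95, standard error 0.34), from 182, 236 and 181 to 30.0, 33.6 and 15.0, and ZKSCAN1 next (-1.91). Of 22 ZBTB genes, which carry a BTB domain, 4 rose and 7 fell, with a median of -0.16. ZBTB48, a telomere-binding protein (-3.91), and ZBTB3 (-2.18) fell, and ZBTB10 (1.69) and ZBTB17, the MYC partner MIZ1 (1.36), rose. Of 19 genes named ZNF with a letter after the digits, 1 rose (ZNF587B, 1.46) and 7 fell, among them ZNF75D (-1.81) and ZNF512B (-1.51), with a median of -0.58. Of 18 KLF and SP genes, 6 rose and 1 fell, with KLF13 (3.68), KLF6 (1.84) and KLF2 (-0.94) at the ends and a median of 0.44. KLF13 read 3.27, 5.75 and 2.83 at baseline, and ZBTB48 read 3.42, 0.890 and 1.75 after dinaciclib. Both lay near the floor there, so the sizes of these 2 largest changes are uncertain. Of 5 ZFP genes, ZFP30 rose (0.85), 0 fell and the median was -0.03.

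A list of KRAB corepressor genes and heterochromatin genes, genes of the HUSH pathway among them, was measured in 30 of 36 genes. Of these 1 rose, 7 fell and 22 did not pass, 3.33% and 23.3%, beside 3.54% and 16.4% of all genes. The median log2 change was -0.15, beside -0.26 over all genes. The raised share was near the background. The scaffold TRIM28, named for its role, read 347, 679 and 660 at baseline and 469, 707 and 629 after dinaciclib. Its groups overlapped, with a log2 change of 0.14 (standard error 0.33, adjusted p = 0.827 by limma with Benjamini-Hochberg). SETDB1, the histone H3 lysine methyltransferase it recruits, rose from 32.7, 65.3 and 50.4 to 151, 103 and 103 (1.28, standard error 0.31). The 2 largest falls were of genes of the HUSH silencing pathway. TASOR, its scaffold, went from 802, 802 and 705 to 146, 98.2 and 88.8 (-2.81, standard error 0.24), and MORC2, an ATPase that HUSH recruits, from 1008, 965 and 846 to 225, 113 and 93.1 (-2.80, standard error 0.35). In both, each treated sample lay far below each baseline sample.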

How the data were processed

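Messenger RNA of 6 samples was measured on an oligonucleotide array with 22277 probe sets. Each probe set has 1 deposited intensity per array, on a linear scale. The authors' background correction and scaling are not given in the sources used here. Probe sets were named from the platform annotation. After 62 controls were left out, 19064 probe sets had 1 gene symbol, 1043 had several, of which 13 held a ZNF symbol and were not named, and 2108 had none. All 212 ZNF genes matched RefSeq by gene identifier.

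No scaling and no filter on low values was added. The test was limma 3.58.1 (lmFit, eBayes; R 4.3.3) on log2(value + 1). The brightest probe set stood for each gene, and p-values of 15114 rows (11963 genes and 3151 rows without a single gene) were adjusted by Benjamini-Hochberg, with a call at 0.05. Fold changes on this scale understate changes of dim genes. The members, lists and groups were chosen with earlier results of these data known. Named genes were the 12 lowest and 10 highest changes among called genes whose groups did not overlap, members with probe sets called in opposite directions (0 found), and a fixed set of 20, of which 18 were measured, and in other lists the 2 largest rises and falls. SP100, SP110 and SP140, which are no zinc finger SP factors, were left out of the KLF and SP list. KRAB domains and finger numbers were not analysed here.

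Alternatives were quantile normalization, centring on array medians or on 45 spiked probe sets, log2(value + 16), no genes under the 40th percentile, a replicate block, a letter batch covariate, the numbered samples alone, the mean of probe sets, every probe set, a variance trend with robust estimation and each sample left out. Samples with the same number barely deviated together (r = 0.074 for 4 and 0.073 for 5 across genes, 0.147 for E with F), so the numbers were not taken as pairs. No 2 samples were identical, and the correlation of log2 values was 0.966 to 0.974 for samples of 1 group and 0.943 to 0.951 across groups. The fit was tested on simulated data. Plots were made in Python 3.11.15 with matplotlib 3.10.9.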

Additional observations from a re-analysis of the deposited data

How the results depend on the processing

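Against 47 lowered and 25 raised ZNF genes and a median log2 change of -0.31, quantile normalization gave 30, 52 and 0.04, median centring 29, 56 and 0.14, and centring on spiked controls 37 lowered and 14 raised. With log2(value + 16) the median was -0.19. The numbered samples alone called 25 lowered and 9 raised genes. Leaving out 1 sample gave 22 to 42 lowered and 10 to 17 raised genes, with medians of -0.34 to -0.22. The replicate block gave 41 lowered and 22 raised genes and ended the calls of ZNF446, ZNF668 and ZNF652 (adjusted p = 0.053, 0.0571 and 0.0813, limma), and the other settings stayed within 1.5 times the counts as deposited. Of 642 values for 38 named genes, 555 kept their direction and side of the threshold, 51 kept the direction but no longer passed, 22 newly passed and 14 changed sign. The sign changes were in genes that did not pass as deposited: ZNF224 under median centring (0.04), ZNF91 (-0.01), ZNF143 (-0.01), ZNF207 (-0.05) and ZNF331 (-0.06) with spiked controls, ZNF143 (-0.02), ZNF207 (-0.17) and ZNF331 (-0.04) in the numbered samples, and with 1 sample left out ZNF207 (-0.20 to 0.16), ZNF331 (-0.02 to 0.09), ZNF91 (-0.03 to 0.17), ZNF143 (0.00 to 0.19, the lowest just below 0) and ZNF750 (-0.01 to 1.14). Fits with 5 or 4 samples have fewer samples by construction; the cause of the other changes was not tested. Signal near the floor limits dim members.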
